A study of Mus musculus with 4 samples.

Results

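The mouse chemokine ligand genes were followed in subcutaneous adipose tissue on 4 expression arrays. They were taken by name: each gene whose symbol in the array annotation starts with Ccl, Cxcl, Cx3cl or Xcl followed by a digit, and which is read by probe sets naming no other gene. This gave 34 of the 19938 genes measured. The naming rule uses no expression values. The mice were C57Bl6 males, 16 weeks old, that carried *lox* sites on both copies of *Napepld*, the gene of an enzyme that makes N-acylethanolamines, a family of signalling lipids that includes endocannabinoid-related mediators. WT mice were littermates without Cre, and cKO mice also carried AP2 Cre, a recombinase under the promoter of the fatty acid binding protein gene *Fabp4*. Both genotypes received a control diet (CT) or a high-fat diet (HFD) for 8 weeks, which gave the groups WT-CT and cKO-CT on the control diet and the groups WT-HFD and cKO-HFD on the other. Each group was read on 1 array of RNA pooled from 4 to 5 mice, so group differences lack any replicate check, no test was possible, and the number of arrays limits the precision. The tissue was whole fat, in which cells that do not use this promoter keep *Napepld*, and *Fabp4* is known to be active in macrophages and endothelium besides adipocytes. The study reports that *Napepld* fell in adipocytes separated from fat and not in the remaining cells. In peritoneal macrophages it reports no difference between the genotypes.

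Chemokines are small secreted proteins that bind receptors on leukocytes and guide them along a gradient. The CC ligands mostly draw monocytes, eosinophils and T cells, while CXC ligands draw neutrophils, activated T cells or B cells, and some ligands are made at rest to place cells within tissues. In adipose tissue of obese animals they are known from the entry of monocytes, which become macrophages around adipocytes.

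The arrays correlated across genes with r between 0.979 and 0.986. *Napepld* had log2 levels of 8.31 for the WT-CT array, 7.78 for the cKO-CT array, 8.01 for the WT-HFD array and 7.94 for the cKO-HFD array, and every later set of 4 levels keeps that order of arrays. Where its probe set lies relative to the *lox* sites is not known here, so the level does not check the labels. All 10 adipocyte markers were above background on every array. Genes of other tissues differed between arrays. The summed log2 level of 12 skeletal muscle markers was 13.86, 13.92, 15.45 and 11.84, and that of 10 pancreatic acinar markers was 10.73, 8.75, 8.94 and 8.86. The part of these tissues in the differences between chemokine genes was not tested.

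A background limit was set with the olfactory receptor (*Olfr*) genes, most of which were taken to be silent in fat. On each array 95% of the 1027 *Olfr* genes lay below a log2 level of 5.39, 5.28, 5.42 and 5.50, and a gene over this value is called above background. Of the 34 chemokine ligand genes, 18 were above background on all 4 arrays (52.9%), against 54.6% of all genes. These were *Ccl2*, *Ccl5*, *Ccl6*, *Ccl7*, *Ccl8*, *Ccl9*, *Ccl11*, *Ccl19*, *Ccl24*, *Ccl25*, *Cxcl1*, *Cxcl9*, *Cxcl10*, *Cxcl12*, *Cxcl13*, *Cxcl14*, *Cxcl17* and *Cx3cl1*. A further 3 passed on some arrays. *Cxcl11* was above on 3 arrays, and on WT-HFD its level minus the limit was -0.032. *Cxcl16* was above on cKO-CT and WT-HFD. *Ccl3* was above on both HFD arrays, by 0.00083 on WT-HFD and by 0.044 on cKO-HFD. The other 13 were below background on every array: *Ccl1*, *Ccl4*, *Ccl12*, *Ccl17*, *Ccl20*, *Ccl22*, *Ccl26*, *Ccl28*, *Cxcl2*, *Cxcl3*, *Cxcl5*, *Cxcl15* and *Xcl1*. Nearest among them was *Ccl17*, which attracts T cells through CCR4 and had a level of 5.49 on cKO-HFD, just under the limit. Per array, 19, 20, 20 and 20 ligand genes were above background. A gene below background is not shown to be silent, since a probe set can read weakly.

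**Figure D1:**
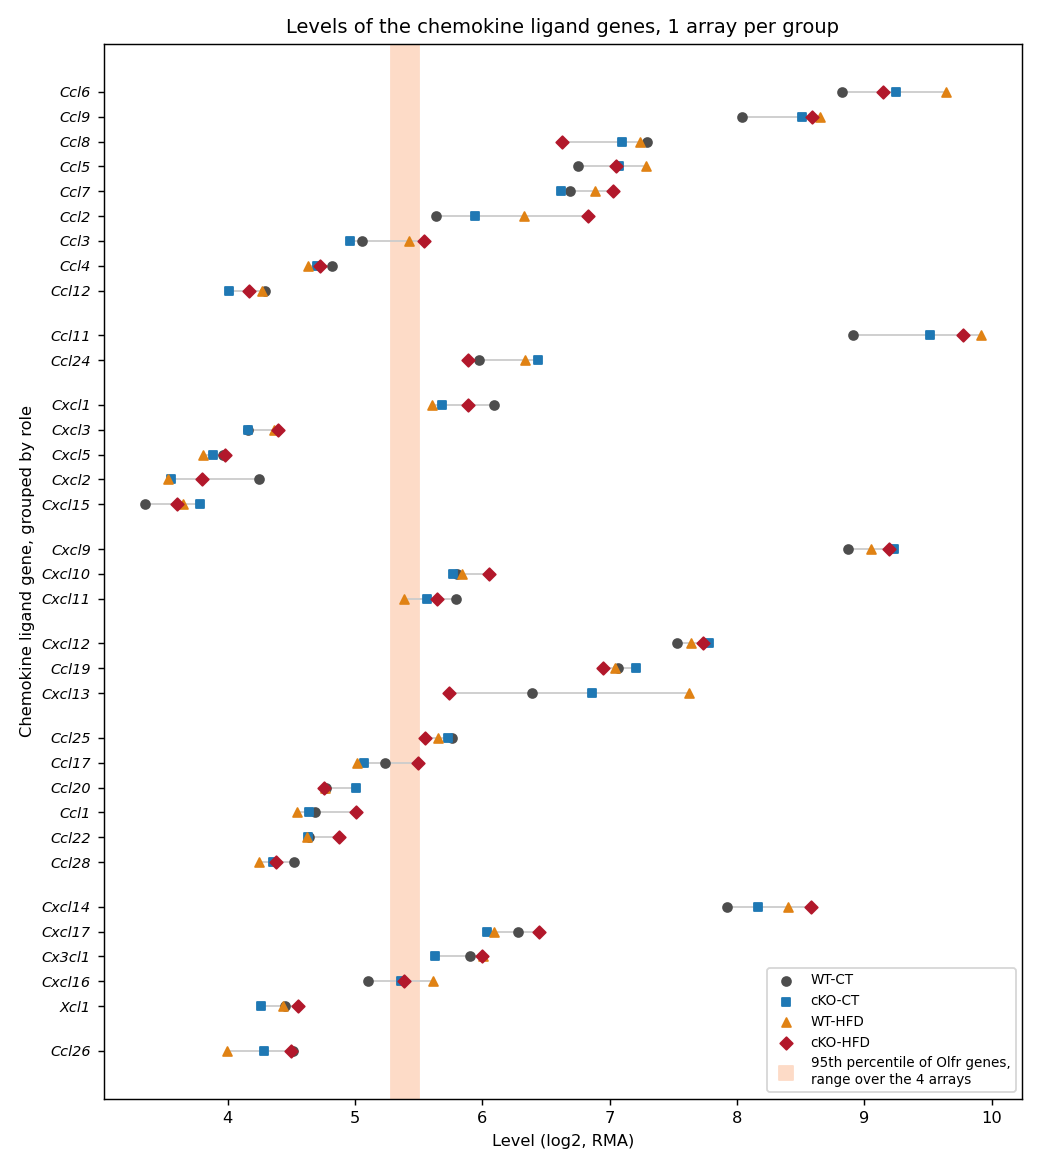
Log2 level of each of the 34 chemokine ligand genes (rows, grouped by role) on the 4 arrays; the shaded band spans the 95th percentiles of *Olfr* genes on the 4 arrays. A point is 1 array, 18 genes lie above that percentile on all 4 arrays and 13 on none, and probe sets differ in brightness, so rows are not ranked against each other.

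Differences of 1.5-fold or more between 2 arrays (0.58 on the log2 scale) were counted. The ligand genes that differed in at least 1 of 5 comparisons were *Ccl2*, *Ccl3*, *Ccl6*, *Ccl8*, *Ccl9*, *Ccl11*, *Cxcl2*, *Cxcl13* and *Cxcl14*. How many of all genes differed in at least 1 was not counted, and the shares per comparison are given below. The stretch of 120 bases before the start of transcription is shown for the 7 of them that the RefSeq table of mouse promoters (GRCm38.p6) holds, to set beside their different patterns the sequences that lie next to each gene's start. Capitals mark matches to GGGANNNNCC, a core of the sites bound by NF-kB, or to TATAAA, the TATA box, on either strand.
Cxcl13 (chr5:95956819-95956938, plus strand): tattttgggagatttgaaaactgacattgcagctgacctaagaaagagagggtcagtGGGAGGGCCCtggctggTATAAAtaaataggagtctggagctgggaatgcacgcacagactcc
Cxcl2 (chr5:90903779-90903898, plus strand): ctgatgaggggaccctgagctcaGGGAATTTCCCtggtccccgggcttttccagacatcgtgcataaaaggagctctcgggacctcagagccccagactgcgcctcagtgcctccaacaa
Ccl8 (chr11:82115065-82115184, plus strand): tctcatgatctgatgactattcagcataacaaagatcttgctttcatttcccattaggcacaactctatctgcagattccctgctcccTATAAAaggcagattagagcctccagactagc
Ccl9 (chr11:83578637-83578756, minus strand): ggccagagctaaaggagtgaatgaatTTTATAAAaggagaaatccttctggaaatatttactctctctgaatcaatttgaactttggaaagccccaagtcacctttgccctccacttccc
Ccl6 (chr11:83593088-83593207, minus strand): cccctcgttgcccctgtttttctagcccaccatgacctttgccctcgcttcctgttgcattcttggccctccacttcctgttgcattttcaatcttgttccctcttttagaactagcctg
Ccl3 (chr11:83649379-83649498, minus strand): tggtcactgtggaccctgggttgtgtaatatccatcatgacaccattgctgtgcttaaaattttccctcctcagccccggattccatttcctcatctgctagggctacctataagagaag
Cxcl14 (chr13:56296552-56296671, minus strand): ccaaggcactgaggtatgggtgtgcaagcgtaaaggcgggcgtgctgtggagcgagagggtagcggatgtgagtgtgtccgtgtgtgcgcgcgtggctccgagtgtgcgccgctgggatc
The *Cxcl13* stretch holds both, with GGGANNNNCC starting 63 bases and TATAAA starting 46 bases before the start. In *Cxcl2* the GGGANNNNCC match reads on both strands, from overlapping positions. *Ccl8* has TATAAA 32 bases before its start, at the distance usual for a TATA box, while the matches of *Ccl9* lie further out and overlap on the 2 strands. *Ccl6*, *Ccl3* and *Cxcl14* hold neither. Over the 23 ligand genes with an entry, 6 hold GGGANNNNCC (*Ccl20*, *Cxcl1*, *Cxcl2*, *Cxcl3*, *Cxcl10* and *Cxcl13*; 26.1%), against 9.83% of 32851 promoters of the same length, and 8 hold TATAAA (34.8%), against 6.34%. GAAANNGAAA, the core of interferon response elements, was in none of the 23 and in 1.22% of all promoters. With so low a share, its absence from 23 genes does not set them apart. The stretch covers only 120 bases. The ligand shares count genes, 23 of them with 24 promoters, and the shares set beside them count promoters. *Ccl2*, *Ccl11* and *Cxcl11* were among the ligand genes without an entry. A match is a run of letters and not a shown binding site.

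On HFD, 5 ligand genes were higher in WT-HFD than in WT-CT (14.7%; 3.16% of all genes) and 1 was lower (2.94%; 2.67% of all genes). The higher ones were *Ccl2*, *Ccl6*, *Ccl9*, *Ccl11* and *Cxcl13*. In cKO-CT over WT-CT, 1 was higher, *Ccl11*, and 1 lower, *Cxcl2*, which is 2.94% each way against 1.64% and 1.52% of all genes. In cKO-HFD over WT-HFD none was higher and 2 were lower, *Ccl8* and *Cxcl13* (5.88%), against 1.04% and 2.11% of all genes. In cKO-HFD over cKO-CT, *Ccl2* and *Ccl3* were higher and *Cxcl13* lower, against 1.82% and 2.17% of all genes. In cKO-HFD over WT-CT, *Ccl2*, *Ccl11* and *Cxcl14* were higher and *Ccl8* and *Cxcl13* lower, against 3.36% and 3.41% of all genes. The 3 comparisons over WT-CT share that array, and the others share arrays with them, so the counts are not independent. *Cxcl2* was the only gene counted that lay below background on every array, and it was counted in cKO-CT and in WT-HFD over WT-CT, where 3.02% and 4.28% of *Olfr* genes also differed by 1.5-fold. In cKO-HFD over WT-HFD this share was 1.27%, and it was 5.45% in each of the remaining comparisons. The *Olfr* genes counted were mostly higher on cKO-HFD, with 50 higher and 6 lower than on cKO-CT. Relative to WT-CT, 49 were raised on that array and 7 reduced, and relative to WT-HFD 11 were raised and 2 reduced. On cKO-CT, 8 were higher than on WT-CT and 23 lower, whereas WT-HFD had 28 higher and 16 lower. The part of this shift in ratios of ligand genes near background, and in the medians below, was not tested.

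**Figure D2:**
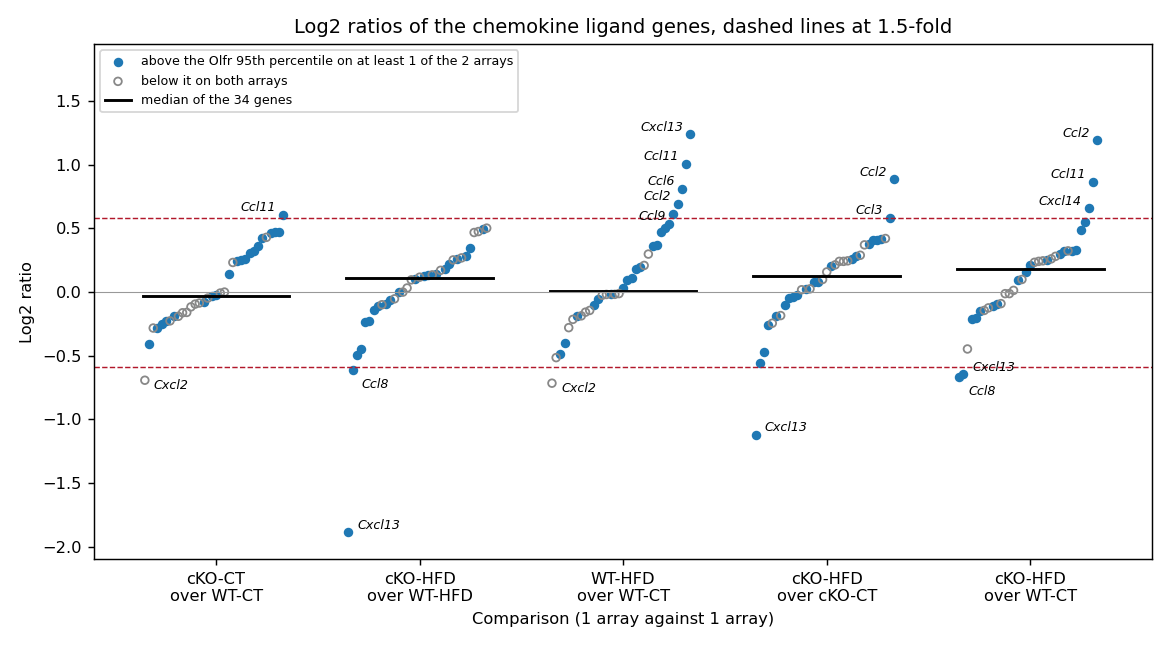
Log2 ratio of each of the 34 chemokine ligand genes in 5 comparisons of 1 array with another; filled points are genes above the *Olfr* 95th percentile on at least 1 of the 2 arrays, open points are below it on both, black bars are medians and dashed lines mark 1.5-fold. Most points lie between the lines, and *Cxcl13* in cKO-HFD over WT-HFD lies furthest out, at -1.89.

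Over all 34 genes the median log2 ratio was -0.03 in cKO-CT over WT-CT (-0.005 for all genes), 0.11 in cKO-HFD over WT-HFD (0.027), 0.01 with HFD in WT (-0.0040), 0.13 in cKO-HFD over cKO-CT (0.017) and 0.18 in cKO-HFD over WT-CT (0.013). The sign of the first is not fixed, since it was 0.03 after cyclic loess. Over the 18 genes above background on all arrays the medians were, in the same order, 0.25, -0.03, 0.19, 0.03 and 0.23, against 0.062, 0.016, 0.018, -0.047 and 0.017 over all genes above background on all arrays, so 2 of the 5 differ in sign from those over the 34. Among the 18 genes above background on all arrays, 8 had their lowest level on WT-CT (*Ccl2*, *Ccl5*, *Ccl6*, *Ccl9*, *Ccl11*, *Cxcl9*, *Cxcl12* and *Cxcl14*), as had 35.1% of all genes above background on all arrays.

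Of 9 ligands that draw monocytes and macrophages, 3 were higher in WT-HFD over WT-CT, and 7 were above background on at least 1 array. *Ccl2*, the main ligand of the monocyte receptor CCR2, had log2 levels of 5.63, 5.94, 6.33 and 6.83, lowest on WT-CT and highest on cKO-HFD. It was 1.62-fold higher in WT-HFD than in WT-CT, 1.85-fold higher in cKO-HFD than in cKO-CT and 2.29-fold higher in cKO-HFD than in WT-CT. On each diet the cKO array was above the WT array, by 0.31 and 0.50 on the log2 scale, under 1.5-fold. The study measured *Ccl2* (as MCP1) by qPCR in replicate mice, among markers from which it reports more inflammation in cKO fat. It reports these markers as similar between cKO-HFD and WT-HFD. *Ccl7*, a close relative that uses the same receptor, had levels of 6.69, 6.62, 6.89 and 7.02 and passed 1.5-fold nowhere.
*Ccl6* and *Ccl9* are neighbouring genes whose products act on CCR1. *Ccl6* had levels of 8.83, 9.25, 9.64 and 9.15 and was 1.76-fold higher in WT-HFD than in WT-CT. *Ccl9*, at 8.04, 8.51, 8.65 and 8.59, was 1.53-fold higher there (0.61 on the log2 scale, and 0.58 after cyclic loess, just under 1.5-fold). Both had their highest level on WT-HFD. *Ccl5*, which draws T cells and monocytes, had levels of 6.75, 7.07, 7.29 and 7.05, with the same array highest, and passed 1.5-fold nowhere. *Ccl3*, an inflammatory ligand made by macrophages, had levels of 5.05, 4.96, 5.42 and 5.54. Its log2 ratio in cKO-HFD over cKO-CT was 0.59, just past 1.5-fold and from a cKO-CT level below background, and it was 0.49 after cyclic loess and 0.56 after median centring, both under 1.5-fold.
*Ccl8*, another monocyte ligand, was low on one array. Its levels were 7.29, 7.10, 7.24 and 6.63, with cKO-HFD alone low, 1.53-fold under WT-HFD and 1.58-fold under WT-CT. *Ccl4* and *Ccl12* lay between 4.01 and 4.82 on every array, below background.

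Macrophage markers also differed between these arrays. The summed log2 level of 18 such markers was 12.44, 13.01, 13.23 and 12.86. By 1.5-fold, 11 were higher in WT-HFD, 7 in cKO-CT and 5 in cKO-HFD, each over WT-CT, while 3 were lower in cKO-HFD over WT-HFD. *Cd68*, a lysosomal protein of macrophages, had levels of 7.66, 8.32, 8.98 and 8.61. *Itgax*, which encodes CD11c, had 4.82, 5.43, 5.99 and 5.75, of which the WT-CT level was below background. These 2 do not stand for the list in cKO-HFD over cKO-CT. There the median log2 ratio of the 18 markers was -0.12, whereas *Cd68* had 0.29 and *Itgax* 0.32. In bulk tissue more cells of a type and more RNA per cell cannot be told apart, and the part of macrophages in the ligand differences was not tested.

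Of the ligands of CCR3, which draw eosinophils, *Ccl11* and *Ccl24* were above background on every array, and *Ccl26*, at 3.99 to 4.51, was on none. *Ccl11* (eotaxin), which stromal cells of fat are known to make, had levels of 8.91, 9.52, 9.91 and 9.77, and WT-CT stood lowest. It was 1.52-fold higher in cKO-CT, 2.01-fold in WT-HFD and 1.82-fold in cKO-HFD, each over the same WT-CT array. The first of these was 0.61 on the log2 scale and 0.52 after cyclic loess, under 1.5-fold. *Ccl24*, a macrophage product, had levels of 5.98, 6.44, 6.33 and 5.88 and passed 1.5-fold nowhere. Of 4 eosinophil markers measured, *Epx*, *Prg2* and *Il5ra* were below background on all arrays, and *Siglecf* was above it on cKO-HFD alone, at 5.73. The receptor gene *Ccr3* was between 4.63 and 4.85, below background. The summed log2 level of 9 stromal progenitor markers was 13.56, 13.84, 14.00 and 13.63; its part in the *Ccl11* difference was not tested.

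Most of the 5 neutrophil-attracting CXC ligands among the 34 genes were below background. *Cxcl1*, a ligand of CXCR2, was the only one of 5 above background, with levels of 6.09, 5.68, 5.60 and 5.89. It was highest on WT-CT and passed 1.5-fold nowhere. *Cxcl2*, its neighbour on the chromosome, had levels of 4.25, 3.55, 3.53 and 3.80, and its ratios of 1.62-fold lower in cKO-CT and 1.64-fold lower in WT-HFD, both over WT-CT, come from values below background. *Cxcl3*, *Cxcl5* and *Cxcl15* lay between 3.35 and 4.40. Neutrophil markers showed the same: of 8, only *Mmp9*, which other cells also make, was above background, and *S100a8*, *S100a9* and *Ly6g*, each higher in cKO-HFD over WT-HFD, were not on any array.

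The 3 ligands of CXCR3, which interferons induce and which draw activated T cells, passed 1.5-fold in no comparison. *Cxcl9* had levels of 8.87, 9.23, 9.05 and 9.19, and *Cxcl10* had 5.80, 5.77, 5.84 and 6.06. *Cxcl11* had 5.79, 5.56, 5.39 and 5.65, and all 3 had a log2 ratio above 0 in cKO-HFD over WT-HFD, between 0.14 and 0.26. Of 11 interferon-stimulated genes measured, none was 1.5-fold apart in that comparison, and their median log2 ratio was -0.22. In cKO-HFD over cKO-CT, 3 were lower: *Usp18*, which removes ISG15 from proteins (-0.82), the antiviral gene *Ifit3* (-0.65) and *Rsad2*, which encodes viperin (-0.61). *Cxcr3* itself was at 5.38, 5.60, 5.31 and 5.68, close to the background limit. It was below that limit on both WT arrays and above it on both cKO arrays.

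*Cxcl13*, which draws B cells through CXCR5, had the widest range over the 4 arrays among the 34 genes. Its log2 levels were 6.39, 6.86, 7.63 and 5.74, so WT-HFD was high and cKO-HFD low. Between the HFD arrays it was 3.70-fold lower in cKO. It was 2.36-fold higher in WT-HFD than in WT-CT but 2.17-fold lower in cKO-HFD than in cKO-CT, so that the HFD array lay above its control in WT and below it in cKO. On the control diet cKO was 0.47 above WT, under 1.5-fold, and cKO-HFD was 1.57-fold under WT-CT.
Its order of arrays, WT-HFD over cKO-CT over WT-CT over cKO-HFD, was held by 657 of all genes (3.30%) and by no other of the 34 ligand genes. The *Ccl21* probe sets, which name several genes and so are outside the 34, had it too, at 7.02, 7.38, 7.64 and 6.44. Several markers of other tissues had it. All 12 skeletal muscle markers had WT-HFD as their highest array and cKO-HFD as their lowest, and 5 had the full order (*Acta1*, *Ckm*, *Myh4*, *Mylk4* and *Pygm*). *Mylk4*, a muscle kinase, had levels of 7.79, 8.42, 10.35 and 5.32. Of 9 stromal progenitor markers, 3 had it (*Dcn*, *Dpp4* and *Pi16*). *Pi16* had 8.02, 8.61, 9.27 and 7.69, and *Dpp4* had 7.27, 7.60, 7.75 and 6.36. *Pdpn*, a gene of lymphoid stroma and lymphatic vessels, had 6.86, 7.07, 7.30 and 6.59. It and *Cr2* were the 2 of 7 lymph node stroma markers with that order. *Ltbr*, the lymphotoxin beta receptor, was highest on cKO-HFD instead, with a log2 ratio of 0.36 in cKO-HFD over WT-HFD, where that of *Pdpn* was -0.71.
Of 8 B cell markers measured, only *Cd79b* was above background and only *Cr2*, below it, had that order. Their summed level was 7.81, 7.61, 7.61 and 7.69, and *Cxcr5* was below background on every array, as were the lymph node genes *Madcam1*, *Glycam1* and *Cr2*. The part of muscle, stroma or lymphoid tissue in the *Cxcl13* difference was not tested.

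**Figure D3:**
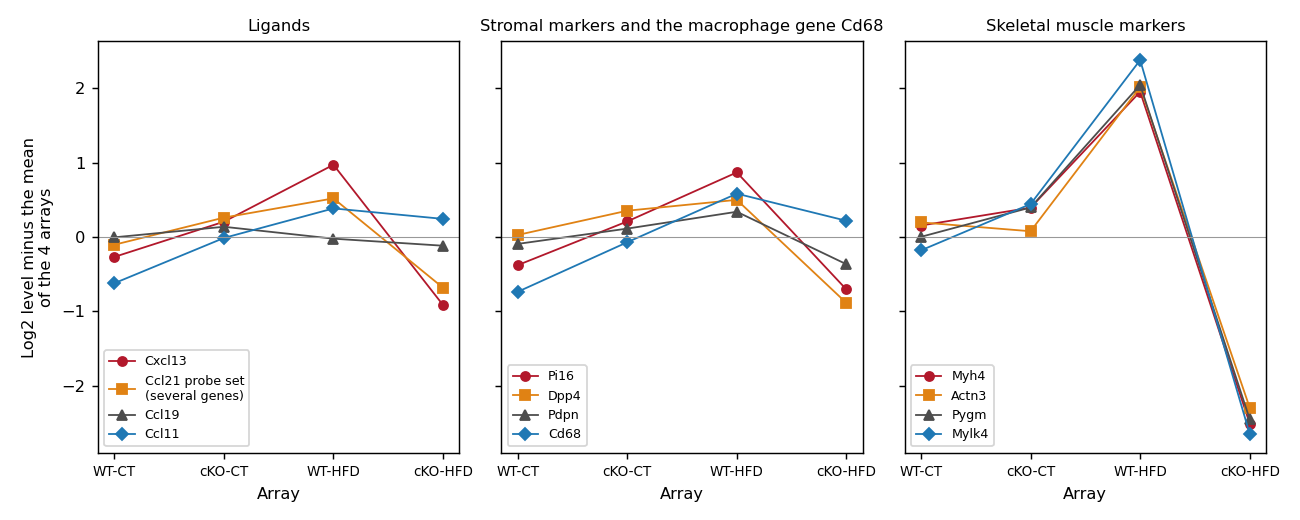
Log2 level minus the mean of the 4 arrays (vertical axis) on each array (horizontal axis) for ligands (left), stromal markers with the macrophage gene *Cd68* (middle) and skeletal muscle markers (right), chosen after their values were seen; lines join the values of 1 gene. *Cxcl13*, *Pi16*, *Dpp4*, *Pdpn* and the muscle markers all peak on WT-HFD and are lowest on cKO-HFD, whereas *Ccl11* and *Cd68* are lowest on WT-CT.

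The 34 genes hold 3 more ligands that place cells at rest or in a set tissue. *Cxcl12*, the ligand of CXCR4, had levels of 7.53, 7.78, 7.63 and 7.74. *Ccl19*, a CCR7 ligand, had 7.06, 7.20, 7.04 and 6.95 as the mean of 5 probe sets, in a region known to hold near-identical copies, so its level is uncertain. *Ccl25*, which draws T cells to the gut through CCR9, had 5.76, 5.73, 5.65 and 5.55 as the mean of 2 probe sets, 1 of which lay lower than the other on every array. With the brighter probe set alone its log2 ratio in cKO-HFD over cKO-CT was -0.46, against -0.19 for the mean. None of these 3 genes passed 1.5-fold.

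Among the remaining ligands, *Cxcl14*, which is made at rest in skin and fat, had levels of 7.92, 8.17, 8.40 and 8.58. It was 1.58-fold higher in cKO-HFD than in WT-CT, and each single step of genotype or diet was under 1.5-fold. *Cxcl16*, a transmembrane ligand that also takes up oxidised lipoprotein, had 5.10, 5.36, 5.61 and 5.38. *Cx3cl1*, the membrane-bound ligand of CX3CR1, had 5.90 on WT-CT and 5.63 on cKO-CT and lay 0.10 above WT-CT on each HFD array. *Cxcl17*, a ligand of mucosal surfaces, had 6.28, 6.03, 6.09 and 6.44. None of these 3 passed 1.5-fold. The T helper and mucosal ligands *Ccl1*, *Ccl17*, *Ccl20*, *Ccl22* and *Ccl28*, and also *Ccl26* and *Xcl1*, were below background and passed 1.5-fold nowhere.

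The genotype difference can be set side by side on each diet, since these comparisons share no array. It had the same sign on both diets for 9 of 34 ligand genes (26.5%), against 47.7% of all genes. It did so for 7 of the 18 above background on every array (38.9%), against 49.6% of all such genes. Of the 34, 15 were lower in cKO on the control diet and higher on HFD, and 10 the reverse (5818 and 4566 of all genes). Of the 18 the counts were 4 and 7 (2372 and 3106 of all such genes). *Olfr* genes past 1.5-fold were mostly lower in cKO on the control diet and mostly higher on HFD. The part of such a shift in these counts was not tested. *Ccl2* was higher in cKO on both diets. The log2 ratio of cKO to WT was 0.42 on the control diet and -0.49 on HFD for *Ccl6*, and 0.46 and -0.45 for *Ccl24*. For *Cxcl1* it was -0.41 and 0.29. The diet difference in WT and in cKO, which also share no array, had the same sign for 14 of 34 (41.2%), against 52.0% of all genes, and for 10 of the 18 above background on every array (55.6%), against 55.0%. Whether the genotype difference depends on diet was not tested, and with 1 array a group it cannot be.

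**Figure D4:**
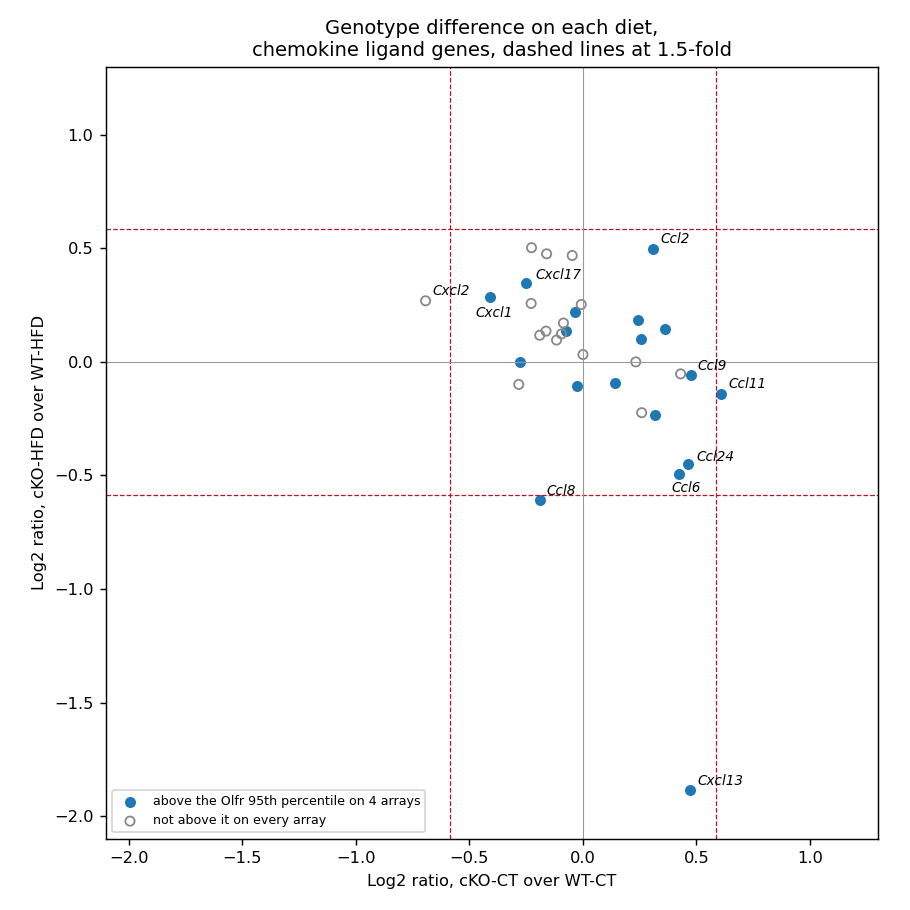
Log2 ratio of cKO to WT on HFD (vertical axis) against that on the control diet (horizontal axis) for the 34 ligand genes; filled points are above the *Olfr* 95th percentile on all 4 arrays, and dashed lines mark 1.5-fold. *Cxcl13* stands alone at the bottom (0.47 on the control diet, -1.89 on HFD), and *Ccl2* lies above 0 on both axes.

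Many ligand genes lie in clusters of tandem copies. Of the 34 genes, 12 are on chromosome 11 and 11 on chromosome 5, counted per chromosome and not per cluster. Neighbours on chromosome 11 did not share 1 pattern. In their order along the chromosome, *Ccl2*, *Ccl7*, *Ccl11*, *Ccl12* and *Ccl8* had log2 ratios of cKO-HFD over WT-CT of 1.19, 0.33, 0.87, -0.12 and -0.66, so *Ccl2* and *Ccl8* of the same cluster lay on opposite sides of 0.

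Of 17 chemokine receptor genes measured, 3 were above background on all arrays (*Ccr7*, *Cx3cr1* and *Cxcr4*) and 11 on none. *Cxcr4* had levels of 5.53, 5.81, 5.95 and 6.02. *Ccr2*, the receptor of *Ccl2*, had 4.93, 5.45, 5.33 and 5.21 and was above background on cKO-CT alone. The receptors that passed 1.5-fold, *Ccr1*, *Ccr4* and *Ccr6*, were below background. Of 5 atypical receptors, which bind chemokines without the usual signal, only *Ccrl2*, which presents chemerin, passed, with 4.95, 5.56, 5.57 and 5.74. It passed only over WT-CT, where its level was below background. *Pf4* and *Ppbp*, platelet CXC ligands whose symbols fall outside the naming rule, had 8.09, 8.64, 8.43 and 8.12, and 5.95, 6.60, 6.18 and 6.03. *Ppbp* was 0.65 higher on the log2 scale in cKO-CT than in WT-CT. None of 10 NF-kB response genes measured passed 1.5-fold in any comparison, and *Tnf*, *Il1b* and *Il6* were below background. The study also measured *Il1b* by qPCR, among the same inflammatory markers as *Ccl2*. Of 9 T cell markers, only *Cd3e* was above background. Endothelial markers, which can make several of these ligands, had a summed log2 level of 11.48, 11.97, 11.74 and 12.21 over 8 genes, with 5 higher in cKO-HFD over WT-CT. Of 8 keratinocyte markers none was above background on all arrays, and of 7 mammary epithelium markers measured 2 were, *Krt8* and *Wap*.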

How the data were processed

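Total RNA from subcutaneous adipose tissue was labelled and hybridized to 4 Affymetrix mouse gene arrays, 1 per group. As deposited, each probe set has a log2 level from RMA, in which the authors corrected background, applied quantile normalization and combined probes. The study's methods name the RMA-Sketch procedure of the APT suite, and the submitters' processing notes name Affymetrix Expression Console. Detection calls were not used. In the platform annotation, which can be old, 21789 probe sets had 1 gene name, 1621 several and 12146 none. Probe sets with 1 name were averaged per gene. A log2 ratio is the difference between 2 arrays, and 1.5-fold is the size the study used to list genes. Summed levels of a list are log2 of the sum of linear levels. The ligand family and the lists were chosen with earlier results of these data known. Every ligand gene above background on any array was given its levels, and of other lists up to 4 genes with the largest ratio among those above background, besides *Napepld* and defining markers; *Acta1*, *Ckm*, *Dcn* and receptors outside this rule were named after their values were seen. Lists held receptors, atypical receptors, interferon and NF-kB genes, and cell type markers. Promoter sequences were from RefSeq (GRCm38.p6). The alternatives were the brightest probe set of a gene, cyclic loess (span 0.7, 3 iterations), median centring, a 2-fold size, a filter on mean level and the 99th percentile of *Olfr* genes. Steps were tested on simulated data. Python 3.11.15, numpy 2.4.6, pandas 2.3.3, matplotlib 3.10.9, R 4.3.3 and limma 3.58.1 were used.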

Additional observations from a re-analysis of the deposited data

Results flagged for a closer look

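The diet difference of *Cxcl13* had opposite signs in the genotypes: its log2 ratio of HFD to the control diet was 1.24 in WT and -1.12 in cKO. The difference between these was not tested, since each group is 1 array.

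Signal was also present in 7 probe sets that name several chemokine genes and were therefore left out above. The 4 *Ccl21* probe sets, for ligands of CCR7 that lymphatic endothelium makes, held the same values, with log2 levels of 7.02 and 7.38 on the control diet (WT, then cKO) and 7.64 and 6.44 on HFD, all above the *Olfr* background. The log2 ratio of cKO-HFD over WT-HFD was -1.20. The *Ccl27* probe sets, for skin ligands of CCR10, gave, in the same order, 7.09, 6.94, 6.71 and 6.50 in one case and 7.97, 7.80, 7.54 and 7.20 in another, highest on WT-CT and lowest on cKO-HFD. Which copy each probe set read was not resolved here.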

How the results depend on the processing

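No paired analysis was possible because each group is 1 array, and for the same reason no array could be left out. Of 86 counts, medians and background counts recomputed, 67 stayed within their limits (1.5 times for a count, 0.1 for a median log2 ratio) and 19 did not. No ratio past 1.5-fold changed sign. After cyclic loess the genes higher in cKO-CT over WT-CT went from 1 to 0 (*Ccl11*, 0.52) and those in cKO-HFD over cKO-CT from 2 to 1 (*Ccl3*, 0.49), and median centring also left 1 there (*Ccl3*, 0.56). At 2-fold, 0 genes differed either way between cKO-CT and WT-CT (0 higher, 0 lower), 1 was lower in cKO-HFD over WT-HFD, 2 were higher and 0 lower in WT-HFD over WT-CT, 0 were higher in cKO-HFD over cKO-CT, and 1 was higher and 0 lower in cKO-HFD over WT-CT. The filter on mean level left 19 ligand genes and 11742 genes in all. It took *Cxcl2* out, so that 0 were lower in cKO-CT and in WT-HFD over WT-CT, and *Ccl3*, so that 1 was higher in cKO-HFD over cKO-CT. The medians were then 0.24 in cKO-CT over WT-CT, -0.0012 in cKO-HFD over WT-HFD and 0.18 in WT-HFD over WT-CT, so that the first and second changed sign. Over the 99th percentile of *Olfr* genes, 13 ligand genes remained on cKO-CT and 12 on cKO-HFD. Over all genes, median centring moved the split in cKO-CT over WT-CT from 327 higher and 303 lower to 416 and 255. Of the 170 single ratios, 3 crossed 1.5-fold after cyclic loess, 1 after centring and 0 with the brightest probe set, although *Ccl25* in cKO-HFD over cKO-CT went from -0.19 to -0.46.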
